A study of Mus musculus with 6 samples.

Results

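Kupffer cell and macrophage marker genes were examined in liver RNA of A/J and A/J-12SM mice on a high-fat diet. The set holds 38 listed genes, and all 38 had a probe set, out of 18193 genes that could be compared. Each gene was read from the probe set annotated to it alone that had the highest mean log2 signal over the 6 arrays. A/J-12SM is a consomic strain, carrying SM/J chromosome 12 in place of its A/J counterpart, so the strains share the A/J genome elsewhere. None of the 38 genes lies on chromosome 12 of GRCm38.p6 (0 members), and they are spread over 16 chromosomes. All mice were males that received the high-fat diet for 7 weeks, until 13 weeks of age per the methods of the study. There were 3 arrays for each strain, and the RNA on each array was combined from 3 mice, so a replicate is a pool and not an animal.

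Kupffer cells are the resident macrophages of the liver. They sit in the sinusoids, clear particles and worn blood cells from the portal blood, and keep their identity through signals from neighbouring sinusoidal endothelial and stellate cells. Monocytes that enter an injured or fatty liver carry the chemokine receptor Ccr2 and can become macrophages that lack the resident markers Clec4f and Timd4 for some time, and lipid-associated macrophages express Trem2 and Gpnmb. Genes such as Ptprc (CD45) are shared by all leukocytes, so in bulk tissue their signal can come from immune cells of any kind.

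The deposited MAS5 signals, which summarise the short probes for a transcript into 1 value, were quantile normalized on the log2 scale. Their mean after trimming was 201 to 213 in A/J against 171 to 186 in A/J-12SM arrays. Correlations between arrays ran from 0.921 to 0.933 within and from 0.922 to 0.930 between strains. Liver identity was clear from the arrays: all 16 measured hepatocyte markers lay above the median brightness of all probe sets. Their median log2 difference between strains was 0.00, and 3 of them were wholly higher in A/J-12SM. Most are among the brightest probe sets. Quantile normalization gives all arrays the same set of values there, though not the same value for each gene, so this median is no check on the scaling. A/J-12SM replicate 3 had a 5′ to 3′ actin signal ratio of 0.423, against 0.553 to 0.590 in the other arrays. In bulk liver RNA, fewer cells of a type and less RNA per cell cannot be told apart, and this holds for every value given here.

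Most macrophage genes had slightly lower signals in A/J-12SM than in A/J liver, but no single gene passed the test. Of the 38 members, 32 had lower and 6 had higher values in A/J-12SM mice, and the median log2 difference (A/J-12SM minus A/J) was -0.23. Over all genes, 50.9% had lower values, with a median of -0.01. No member passed an adjusted p under 0.05 in limma, which compares each probe set between the strains and adjusts over all 45037 of them; the smallest adjusted p of a member was 0.45, for Cd5l. Of all probe sets 0.0555% passed, and of all genes 0.066%. At an unadjusted p under 0.05 in limma there were 5 members, all lower in A/J-12SM (Cd5l, Mpeg1, Aif1, C1qa and Fcgr1), where 6.77% of all genes reached this level in either direction and 3.39% were lower. A per-gene t-test, which the study's methods name for comparing the strains but do not tie to these arrays, gave 0 members after adjustment and 2 at an unadjusted p under 0.05. Arrays of the strains were fully separated for 4 members, each time with A/J-12SM wholly below A/J (Cd5l, Folr2, Aif1 and Mpeg1); this was so for 6.34% of all genes, and 12.3% of all genes did not overlap in either direction. Of the genes whose probe set was no dimmer than the median, where 35 of the 38 members lay, 50.6% had lower values, 4% were lower at an unadjusted p under 0.05 and 7.17% were wholly lower.

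**Figure D1:**
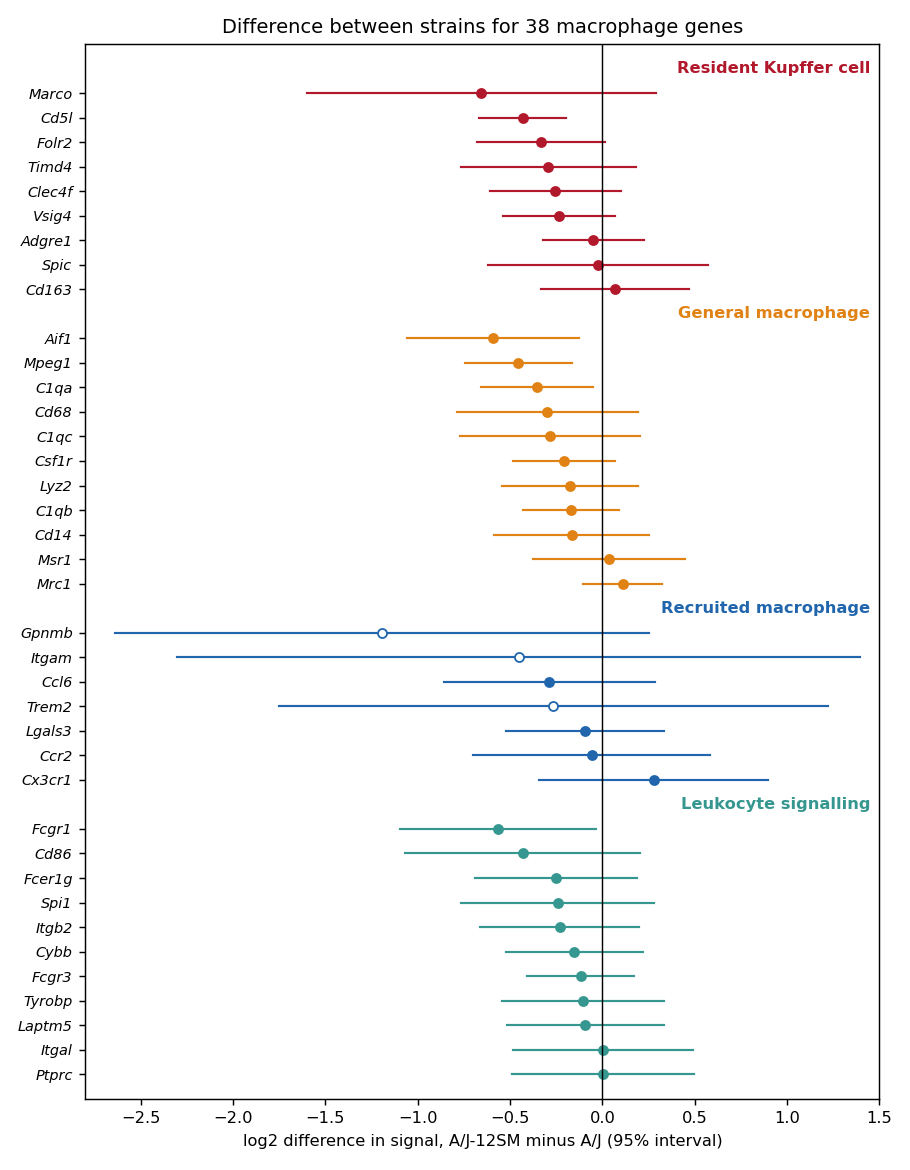
Log2 difference in signal between strains (x axis, A/J-12SM minus A/J, with its 95% interval from limma) for each of the 38 genes (y axis), by class; open points are probe sets below the median brightness. Most points lie left of 0, from -1.20 for Gpnmb to 0.28 for Cx3cr1, and most intervals cross 0.

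The size of the differences that remain possible can be read from the 95% intervals. For 31 of the 38 members the interval lay wholly above -1 log2 unit, so a fall of that size or more was outside it. The other 7 were Marco, Aif1, Itgam, Trem2, Gpnmb, Fcgr1 and Cd86. A rise of 1 or more was outside the interval for 36 members, the exceptions being Itgam and Trem2.

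Resident Kupffer cell markers made up 9 of the 38 genes. Of these, 8 had lower and 1 had higher values in A/J-12SM liver, with a median log2 difference of -0.25. All 9 lay above the median brightness, and the brightest were Vsig4, Clec4f and Cd5l. None passed over all probe sets.

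Cd5l (chromosome 3, 87357881 to 87371074) encodes a secreted protein, also known as AIM, that macrophages release into the blood. Its log2 signal was 10, 10.32 and 10.08 in the A/J arrays against 9.79, 9.71 and 9.61 in the A/J-12SM arrays. Every A/J-12SM array lay below every A/J array. The log2 difference was -0.43 (SE 0.11, 95% interval -0.67 to -0.20, adjusted p = 0.45 from limma), which is 25.8% less signal. An exact two-sided permutation test gave p = 0.1, the smallest that 3 arrays against 3 allow. Over the 15 other settings its difference ran from -0.65 to -0.34, and its smallest adjusted p was 0.0546 in limma, with the values as deposited.

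Clec4f (chromosome 6, 83644542 to 83656116) is a C-type lectin that in mice marks Kupffer cells and little else. It read 10.01, 10.23 and 10.17 in A/J against 10.18, 9.99 and 9.49 in A/J-12SM arrays. The strains overlapped, since A/J-12SM replicate 1 stood level with A/J and replicate 3 alone was clearly lower. The log2 difference was -0.25 (SE 0.16, adjusted p = 0.843 from limma), and it was -0.06 without that array. Vsig4 (chromosome X, 96247201 to 96293438), a receptor for complement fragments that captures blood-borne bacteria, had 9.91, 10.22 and 10.27 in A/J against 10.15, 9.72 and 9.82. Its arrays also overlapped, with a log2 difference of -0.24 (SE 0.14, adjusted p = 0.833 from limma).

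Timd4 (chromosome 11, 46810786 to 46844333) is a receptor for phosphatidylserine on dying cells and marks long-lived resident Kupffer cells. Its values were 6.72, 7.07 and 7.18 in A/J against 6.92, 6.83 and 6.34 in A/J-12SM arrays. The groups overlapped and the log2 difference was -0.29 (SE 0.21, adjusted p = 0.865 from limma). Adgre1 (chromosome 17, 57358581 to 57483529) encodes F4/80, the surface antigen by which mouse macrophages are usually stained. It read 8.39, 8.34 and 8.13 in A/J against 8.38, 8.17 and 8.16 in A/J-12SM arrays, so the strains lay over each other. The log2 difference of -0.05 (SE 0.12, 95% interval -0.32 to 0.22, adjusted p = 0.967 from limma) was one of the more precise of the set.

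Marco (chromosome 1, 120474538 to 120505024), a scavenger receptor for bacteria and particles, had the most negative difference of the resident markers and the widest interval. It read 6.57, 6.86 and 6.75 in A/J arrays, a narrow range. In A/J-12SM arrays it read 7.22, 5.74 and 5.25, with replicate 1 above all A/J arrays and the other arrays well below them. The log2 difference was -0.66 (SE 0.42, 95% interval -1.60 to 0.29, adjusted p = 0.848 from limma). It was -1.22 without A/J-12SM replicate 1, and a dimmer Marco probe set gave -0.05 (SE 0.46).

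Folr2, a folate receptor of resident macrophages, read 7.69, 7.89 and 7.76 in A/J against 7.67, 7.49 and 7.18 in A/J-12SM arrays. The strains did not overlap, but A/J-12SM replicate 1 lay just under the lowest A/J array. The log2 difference was -0.33 (SE 0.15, adjusted p = 0.805 from limma). Cd163, the receptor that clears haemoglobin bound to haptoglobin, had a log2 difference of 0.07 (SE 0.18), and Spic, a transcription factor of iron-recycling macrophages, had one of -0.02 (SE 0.27).

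**Figure D2:**
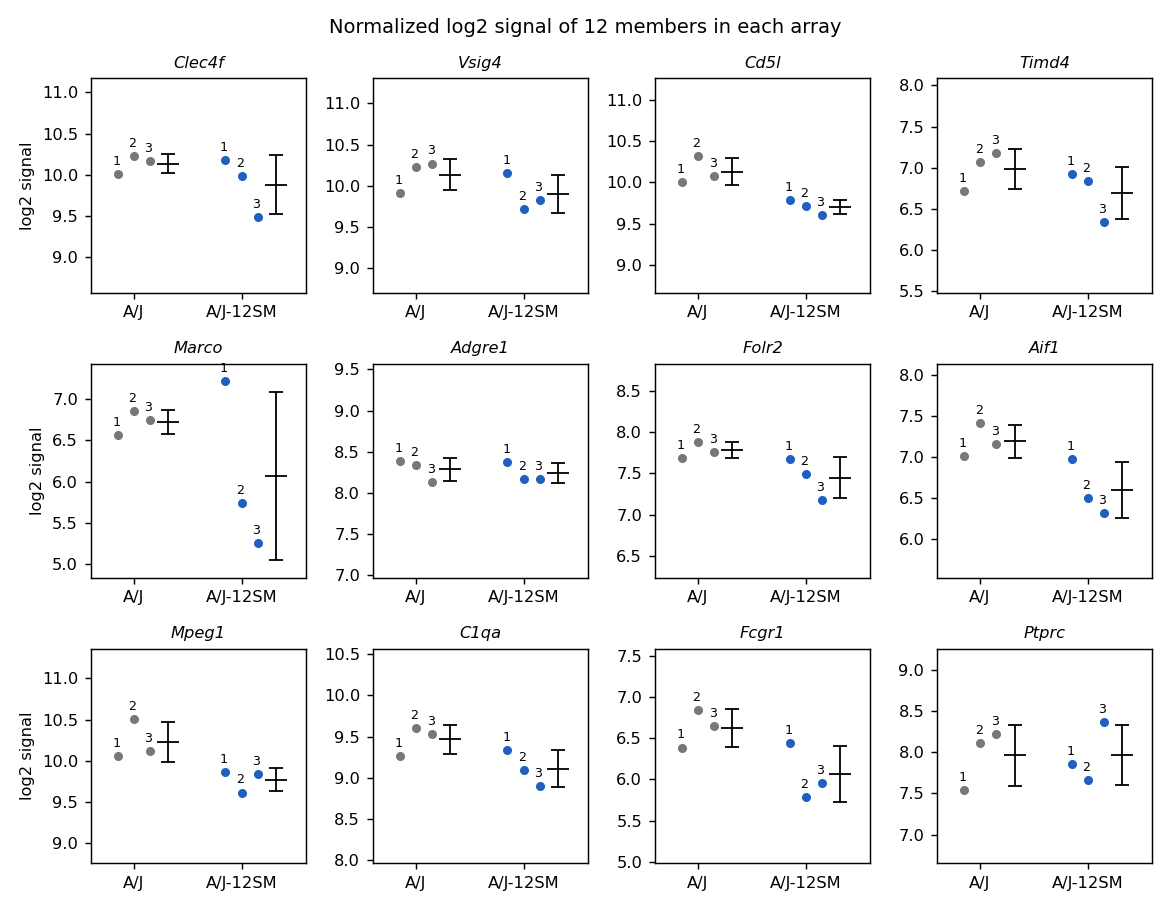
Normalized log2 signal (y axis, each panel spanning the same range) of 12 members by array, for A/J in grey and A/J-12SM in blue; numbers are replicate numbers, and the black line and bar beside the points are the mean and SD of 3 arrays. Cd5l, Mpeg1, Aif1 and Folr2 show no overlap between strains, while Adgre1 and Ptprc lie at the same level.

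The macrophage factor PU.1, which the member Spi1 encodes, binds sequences with the core GAGGAA, and promoters of macrophage genes are known to hold such sites. Promoter sequences (250 bases before the start of transcription, RefSeq, GRCm38.p6) were at hand for 28 of the 38 members. The letters GAGGAA were present on either strand in 14 of the 28 (50%), against 25.9% of 27025 genes. They were present in 3 of 8 resident, 5 of 7 general macrophage, 2 of 7 recruited and 4 of 6 leukocyte members. A match is only a description of these letters and does not show binding.
Promoters of 3 members are shown for the resident and leukocyte members at the ends of the range of differences, in lower case, 5′ to 3′ on the strand of the gene, with GAGGAA or its reverse complement in capitals. Marco had the most negative and Cd163 the most positive difference of the resident class, and Fcgr1 had the most negative of the leukocyte class. Ptprc, at the other end of the leukocyte class with 0.00, is not shown because its promoter window overlapped the annotated gene. It is among the members that held GAGGAA.
Marco (chr1:120505025-120505274, minus strand): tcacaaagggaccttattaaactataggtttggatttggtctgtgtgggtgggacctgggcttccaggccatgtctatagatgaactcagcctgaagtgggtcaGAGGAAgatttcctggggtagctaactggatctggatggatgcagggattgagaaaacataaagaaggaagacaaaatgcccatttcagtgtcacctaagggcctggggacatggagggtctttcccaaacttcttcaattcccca
Cd163 (chr6:124304401-124304650, plus strand): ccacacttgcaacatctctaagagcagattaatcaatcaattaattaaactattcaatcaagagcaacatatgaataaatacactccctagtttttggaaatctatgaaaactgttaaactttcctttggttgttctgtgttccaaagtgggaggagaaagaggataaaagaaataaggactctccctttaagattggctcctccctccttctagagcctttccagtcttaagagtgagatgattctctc
Fcgr1 (chr3:96293970-96294219, minus strand): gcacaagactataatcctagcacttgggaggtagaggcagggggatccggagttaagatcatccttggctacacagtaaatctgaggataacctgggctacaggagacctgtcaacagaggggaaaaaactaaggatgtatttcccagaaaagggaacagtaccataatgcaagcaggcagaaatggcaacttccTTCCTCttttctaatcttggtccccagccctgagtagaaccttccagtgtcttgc
In the Marco promoter the match begins 146 bases before the start, in the Fcgr1 promoter it lies on the opposite strand from 55 to 50 bases before the start, and the Cd163 window holds no match. The log2 differences of these genes were -0.66 for Marco, -0.56 for Fcgr1 and 0.07 for Cd163. These members were selected for the ends of the range, so no relation between motif and difference is read from them.

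Markers shared by macrophages in general, 11 genes, had lower values for 9 and higher values for 2, with a median log2 difference of -0.21. None passed over all probe sets, and Mpeg1, Aif1 and C1qa had an unadjusted p under 0.05 in limma.

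Mpeg1 (chromosome 19, 12460770 to 12465285) encodes perforin-2, a pore-forming protein that macrophages use against engulfed bacteria. It read 10.06, 10.51 and 10.12 in A/J against 9.86, 9.62 and 9.84 in A/J-12SM arrays. All A/J-12SM arrays lay below all A/J arrays, and the log2 difference was -0.46 (SE 0.13, 95% interval -0.75 to -0.16, adjusted p = 0.59 from limma). Aif1 (chromosome 17, 35170986 to 35176083) encodes the actin-binding protein Iba1 and read 7.01, 7.41 and 7.16 against 6.98, 6.50 and 6.32. Here too the strains did not overlap, although A/J-12SM replicate 1 lay just under A/J replicate 1. Its log2 difference was -0.59 (SE 0.21, 95% interval -1.06 to -0.13, adjusted p = 0.727 from limma), or 33.7% less signal.

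C1qa, C1qb and C1qc encode the chains of C1q, the recognition part of the classical complement pathway, which liver macrophages make in large amount. The genes lie side by side on chromosome 4 between 136880126 and 136898844. C1qa read 9.27, 9.60 and 9.53 in A/J against 9.34, 9.10 and 8.90 in A/J-12SM arrays, with a log2 difference of -0.35 (SE 0.14, adjusted p = 0.759 from limma). C1qb read 9.03, 9.42 and 9.22 against 9.12, 8.98 and 9.07, with a difference of -0.17 (SE 0.12, adjusted p = 0.857 from limma). C1qc read 8.87, 9.32 and 9.09 against 9.29, 8.82 and 8.32, with a difference of -0.28 (SE 0.22, adjusted p = 0.873 from limma). In each of the 3 genes A/J replicate 1 was the lowest A/J array and A/J-12SM replicate 1 the highest A/J-12SM array, and those arrays made the strains overlap.

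Csf1r, the receptor for the growth factors Csf1 and Il34 on which macrophages depend, was the brightest member. It read 10.96, 11.32 and 11.19 in A/J against 11.07, 10.72 and 11.04 in A/J-12SM arrays. The strains overlapped and the log2 difference was -0.21 (SE 0.12, 95% interval -0.49 to 0.07, adjusted p = 0.833 from limma). Cd68, a glycoprotein of macrophage lysosomes, differed by -0.30 (SE 0.22). Lyz2, lysozyme, differed by -0.17 (SE 0.16), and Cd14, a co-receptor for endotoxin, by -0.17 (SE 0.19). Values slightly above 0 were found for endocytic receptors, with 0.11 (SE 0.09) for the mannose receptor Mrc1, which sinusoidal endothelial cells also express, and 0.03 (SE 0.18) for the scavenger receptor Msr1.

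Markers of recruited monocytes and lipid-associated macrophages, 7 genes, were dim. Only 4 of the 7 lay at or above the median brightness of all probe sets, against all 31 of the other members. Lower values were found for 6 and a higher value for 1, with a median log2 difference of -0.27, but no member of this class had an unadjusted p under 0.05 in limma and none was without overlap. The median was -0.08 over the 4 members left when dim probe sets were removed, and 0.01 without A/J-12SM replicate 1, so it has no settled sign.

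Ccr2 (chromosome 9, 124101918 to 124109140), through which monocytes follow the chemokine Ccl2 into tissue, read 5.63, 5.996 and 5.69 in A/J against 5.29, 5.75 and 6.10 in A/J-12SM arrays. The A/J-12SM arrays spanned the A/J arrays on both sides. The resulting log2 difference was -0.06 (SE 0.29, 95% interval -0.70 to 0.58, adjusted p = 0.984 from limma). Cx3cr1 (chromosome 9, 120048683 to 120068296), the fractalkine receptor of monocytes and several tissue macrophages, read 5.53, 6.04 and 5.92 against 6.47, 5.67 and 6.18. It had the most positive difference of all members, 0.28 (SE 0.28, adjusted p = 0.90 from limma), within the spread of its arrays.

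Gpnmb (chromosome 6, 49036518 to 49058182), a glycoprotein of lipid-laden macrophages, had the most negative difference of the set but was below the median brightness. It read 5.45, 3.87 and 5.17 in A/J against 3.10, 4.75 and 3.05 in A/J-12SM arrays, and the strains overlapped. This gave a log2 difference of -1.20 (SE 0.65, 95% interval -2.64 to 0.25, adjusted p = 0.829 from limma). Trem2 (chromosome 17, 48346401 to 48352276), a lipid-sensing receptor that signals through Tyrobp, read 4.55, 4.03 and 3.43 against 2.59, 4.72 and 3.91, with a difference of -0.27 (SE 0.66, adjusted p = 0.967 from limma). Itgam (chromosome 7, 128062640 to 128118491), the integrin CD11b of monocytes and neutrophils, read 3.83, 4.47 and 3.55 against 4.24, 1.56 and 4.68. Its difference of -0.45 (SE 0.83, adjusted p = 0.949 from limma) became 0.51 without A/J-12SM replicate 2, which lay far below the other arrays. At these levels the arrays do not resolve a change in lipid-associated or recruited cells. Ccl6, a myeloid chemokine, differed by -0.29 (SE 0.26), and Lgals3, the lectin galectin-3, by -0.10 (SE 0.19).

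**Figure D3:**
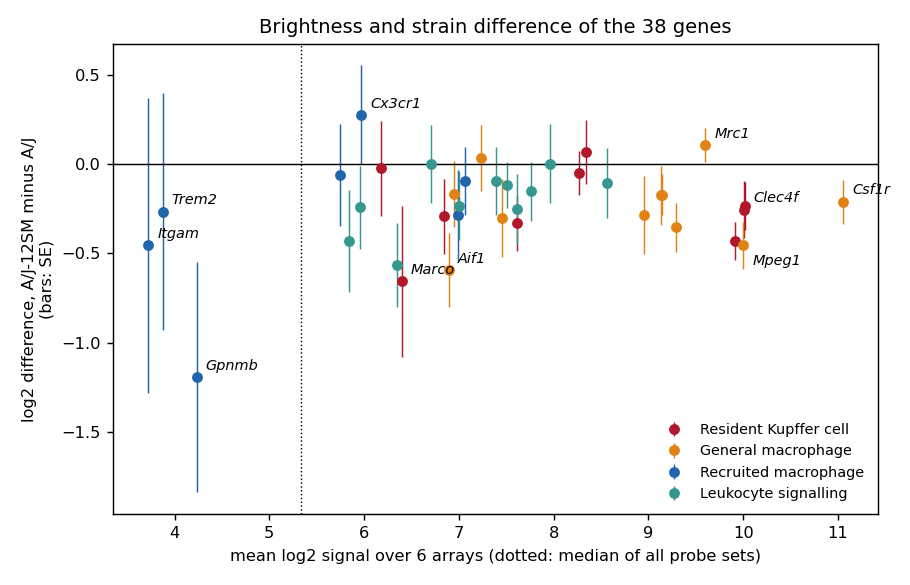
Log2 difference between strains (y axis, A/J-12SM minus A/J, bars are SE) against mean log2 signal over the 6 arrays (x axis) for the 38 genes, coloured by class; the dotted line is the median of all probe sets (5.33). The recruited markers Gpnmb, Trem2 and Itgam lie left of the line with SEs from 0.65 to 0.83, and the other 35 genes lie to the right.

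Receptors and signalling genes shared by leukocytes, 11 genes, had lower values for 9 and higher values for 2, with a median log2 difference of -0.15. Ptprc (chromosome 1, 138062859 to 138175756), the CD45 phosphatase of all leukocytes, read 7.54, 8.12 and 8.22 in A/J against 7.86, 7.67 and 8.37 in A/J-12SM arrays. The strains lay at the same level, with a log2 difference of 0.00 (SE 0.22, 95% interval -0.49 to 0.50, adjusted p = 0.998 from limma). Fcgr1 (chromosome 3, 96282909 to 96293969), the high-affinity IgG receptor of monocytes and macrophages and a gene induced by interferon gamma, read 6.39, 6.84 and 6.65 against 6.44, 5.78 and 5.96. A/J-12SM replicate 1 fell within the A/J range, and the log2 difference was -0.56 (SE 0.24, 95% interval -1.10 to -0.03, adjusted p = 0.796 from limma).

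Spi1 (chromosome 2, 91082374 to 91115759), the gene of PU.1, read 6.11, 6.07 and 6.05 in A/J against 5.59, 6.09 and 5.82 in A/J-12SM arrays. The A/J arrays were nearly equal and A/J-12SM replicate 2 fell among them. Between strains the log2 difference came to -0.24 (SE 0.23, adjusted p = 0.898 from limma). The receptor adaptors with an activation motif differed by -0.25 (SE 0.20) for Fcer1g and -0.11 (SE 0.20) for Tyrobp. The low-affinity IgG receptor Fcgr3 differed by -0.12 (SE 0.13) and the lysosomal protein Laptm5 by -0.09 (SE 0.19). The leukocyte integrin subunits differed by -0.23 (SE 0.19) for Itgb2, the shared beta chain, and by 0.00 (SE 0.22) for Itgal, its partner on lymphocytes and monocytes. Cd86, a costimulatory ligand for T cells, differed by -0.43 (SE 0.28), and Cybb, the catalytic subunit of the phagocyte oxidase, by -0.15 (SE 0.17). All values in this class other than that of Fcgr1 had an unadjusted p above 0.05 in limma.

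Resident markers were set against recruited and leukocyte markers together because the list was drawn up for that contrast. The median log2 difference of the resident class was lower than that of the recruited and leukocyte members together by only 0.06 (-0.25 against -0.19). The recruited class alone had a median of -0.27. By array, each gene's own mean of the 6 arrays was subtracted first. The mean of the resident members minus that of the 18 recruited and leukocyte members was then 0.05, -0.13 and 0.09 for the A/J arrays. It was 0.28, -0.02 and -0.27 for the A/J-12SM arrays. The A/J-12SM arrays thus spanned the A/J arrays on both sides, and the difference of the medians became 0.09 without A/J-12SM replicate 3 and -0.22 without A/J-12SM replicate 1. A shift of resident relative to recruited and leukocyte markers together was not detectable with these arrays.

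The members varied together within a strain by amounts as large as the difference between strains. On the same centred scale, the 38 members together averaged -0.04, 0.23 and 0.17 in A/J arrays and -0.01, -0.15 and -0.20 in A/J-12SM arrays. A/J replicate 1 and A/J-12SM replicate 1 were thus level. A/J replicate 1 was the lowest A/J array in 31 of the 38 members, including all 11 general macrophage and 10 of 11 leukocyte members. A/J-12SM replicate 1 was the highest A/J-12SM array in 24 of 38. A/J-12SM replicate 3, the array with the low actin ratio, was the lowest of all 6 arrays in 15 members, 5 of them among the 9 resident markers. Without it 33 members had lower values, the median over the 38 was -0.18 and that of the resident class was -0.11. The part of RNA quality in the member values was not tested. Without A/J replicate 1, A/J-12SM lay wholly below A/J in 19 of 38 members, against 10.7% of all genes with that array left out, and the median was -0.31. Without A/J replicate 2, which was the highest of the 6 arrays in 20 members, 29 members had lower values and the median was -0.17.

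The direction of the list held under all scalings, while its size did not. With the values as deposited, 37 of 38 members were lower and the median was -0.46, but the median of all genes was then -0.22 and 78.4% of all genes were lower. With each array centred on its median it was -0.22, and with the arrays scaled to 1 trimmed mean it was -0.25.

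Several members have more than 1 probe set, and the others mostly pointed the same way. Beside the 38 probe sets used, the array holds 26 for 16 of the members, 15 of them at or above the median brightness. Of the 26, 22 had lower values in A/J-12SM and 20 had the sign of the probe set used. None of all 64 probe sets passed over all probe sets in limma. For Csf1r the other values were -0.07 (SE 0.15) and -0.35 (SE 0.15), and for C1qb they were -0.30 (SE 0.13) and -0.19 (SE 0.22). Msr1 had no settled sign, with -0.35 (SE 0.20), 0.19 (SE 0.21) and -0.58 (SE 0.24) beside 0.03. The Msr1 probe sets at -0.35 and -0.58 had no overlap of the strains. Cybb had -0.35 (SE 0.15), also without overlap, and 0.20 (SE 0.26) with overlap, beside -0.15. Laptm5 had -0.14 and -0.45 by its brighter other probe sets. Those of Cd86, Fcgr1 and Ccl6 gave -0.32, -0.08 and -0.01, and the other Spic probe set, below the median brightness, gave 0.39 (SE 0.48). Ptprc and Itgal, at 0.00 by the probe sets used, had -0.35 (SE 0.59) and -0.19 (SE 0.64) by others below the median brightness.

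Genes of the same pathways outside the list gave a mixed picture, and none passed over all probe sets in limma. Partners of Cybb in the phagocyte oxidase had lower values for 4 of 4, with a median log2 difference of -0.29, among them Cyba at -0.44 (SE 0.19) and Rac2 at -0.48 (SE 0.23). Of 14 kinases and adaptors that act below Fc receptors and Tyrobp, 9 had lower values, with a median of -0.15. In that list the phosphatase Ptpn6, which dampens such signals, had -0.35 (SE 0.14) without overlap of the strains. The adaptor Blnk had -0.57 (SE 0.38), the kinase Syk 0.36 (SE 0.26) and the inhibitory receptor Sirpa -0.26 (SE 0.24), each with overlap. Pik3cg of the same list lies on chromosome 12, the chromosome replaced in A/J-12SM. It had -0.36 (SE 0.35) with overlap, by a probe set below the median brightness. Of 17 growth factors and regulators of macrophage identity, 6 had lower and 11 had higher values, with a median of 0.04. Those named by smallest p were Smad4 at 0.19 (SE 0.10) and Tgfbr1 at 0.08 (SE 0.10), which carry TGF-beta signals. With them were the myeloid transcription factors Irf8 at -0.43 (SE 0.27) and Cebpb at -0.28 (SE 0.18). The ligands of Csf1r gave 0.09 (SE 0.15) for Csf1 and 0.01 (SE 0.34) for Il34, both named after their values were seen.

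Other Kupffer cell genes also had mostly lower values. Of 11 measured, 8 had lower values, with a median of -0.21, and Hmox1, the haem oxygenase by which macrophages break down haem, had -0.78 (SE 0.24, adjusted p = 0.622 from limma) without overlap. With overlap, Pltp, a phospholipid transfer protein, had -0.24 (SE 0.13) and Hpgd, which degrades prostaglandins, had 0.18 (SE 0.10). The lectin receptor Clec1b had -0.21 (SE 0.13) without overlap. Of 11 other monocyte and inflammatory macrophage genes, 3 had lower and 8 had higher values, with a median of 0.07. Higher values were found for Fabp5 at 0.35 (SE 0.26) and S100a6 at 0.31 (SE 0.28), among others. The lower ones were Plac8 at -0.13 (SE 0.16) and, by probe sets below the median brightness, Itgax and Tnf. Itgax had -0.89 (SE 0.45) without overlap of the strains, and Tnf had -0.42 (SE 0.67) with overlap.

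Of 11 monocyte chemokines 8 had lower values, with a median of -0.09. Cxcl10, which interferon induces and which is also in the interferon list, gave -0.58 (SE 0.23). Cxcl16 gave 0.28 (SE 0.23), Ccl9 -0.08 (SE 0.09) and Ccl8 0.21 (SE 0.40), each with overlap of the strains. Ccl2, a ligand of Ccr2, was named after its values were seen. It read 4.01, 4.22 and 4.63 in A/J against 0.40, 2.02 and 2.69 in A/J-12SM arrays, all A/J-12SM arrays lying below all A/J arrays. A/J-12SM differed by a log2 value of -2.58 (SE 0.75, adjusted p = 0.604 from limma) by a probe set below the median brightness, where the spread between arrays was wide.

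Markers of other immune cells were mostly below the median brightness in these livers. At or above the median brightness were 2 of 10 T cell, 3 of 9 B cell, 1 of 7 NK cell, 4 of 11 neutrophil and 2 of 7 dendritic cell markers. The T cell list had 5 lower and 5 higher values, and 7 of 9 B cell markers had higher values, with a median of 0.24. All 7 NK cell markers had lower values, with a median of -0.97 by mostly dim probe sets, 7 of 11 neutrophil markers did, with a median of -0.20, and 4 of 7 dendritic cell markers did, with a median of -0.25.

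Lists for other liver cells and responses had medians above, among and below those of the macrophage classes, which ran from -0.27 to -0.15. The platelet list lay among them, as did the neutrophil and dendritic cell lists given above. Stellate cell and fibroblast markers had higher values for 16 of 18, with a median of 0.16, and sinusoidal endothelial markers for 8 of 13, with a median of 0.12. The stellate list includes Colec11, which lies on chromosome 12, the chromosome replaced in A/J-12SM. It had 0.41 (SE 0.08) without overlap of the strains. Bile duct markers had lower values for 4 of 5, with a median of -0.60 and 1 of them at or above the median brightness, and platelet markers for 3 of 5, with a median of -0.22. Erythroid markers were lower for 3 of 6, with a median of -0.08. Interferon response genes had lower values for 23 of 25, with a median of -0.58, such as Xaf1 at -0.75 (SE 0.14) and Gbp6 at -1.09 (SE 0.21). The interferon list averaged -0.10, 0.50 and 0.38 in the A/J arrays against -0.12, -0.32 and -0.35 in the A/J-12SM arrays, so A/J replicate 1 stood apart from the other A/J arrays in the same direction as for the macrophage genes. Its part in the macrophage values was not tested. Cell cycle genes had lower values for 11 of 11, by probe sets of which 2 lay at or above the median brightness, and no gene in any of these lists passed over all probe sets.

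**Figure D4:**
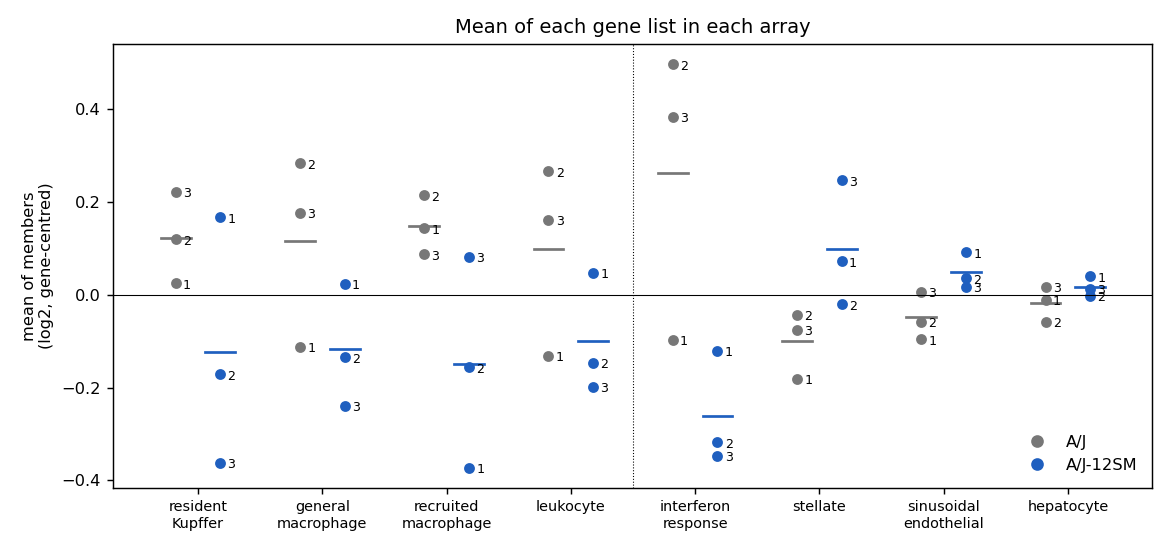
Mean of each list's genes (y axis, log2 signal less the gene's own mean of 6 arrays), by array, for A/J in grey and A/J-12SM in blue; numbers are replicate numbers and short lines are means of 3 arrays. Left of the dotted line are the 4 macrophage classes, in which the strains overlap except in the recruited class, and right of it are lists for comparison; A/J replicate 1 lies at -0.10 in the interferon list.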

How the data were processed

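Total RNA of liver was extracted from single mice, combined from 3 mice and hybridized to 1 Affymetrix mouse expression array, with 3 arrays per strain. The deposited values are MAS5 signals, linear intensities that the authors computed per probe set, credited to the submitters' processing notes; no version or scaling is given in the sources used. Strain and replicate came from the sample titles. Of 45101 probe sets, 64 controls were left out. Signals were log2 transformed, quantile normalized and compared with limma 3.58.1 in R 4.3.3 (lmFit, eBayes with trend), with Benjamini-Hochberg adjustment over 45037 probe sets and a threshold of 0.05. Differences are A/J-12SM minus A/J. Gene names and positions came from the platform annotation and RefSeq (GRCm38.p6): 34945 probe sets had 1 gene, 932 several and 9160 none, and unnamed probe sets were tested but not listed. Each gene was read from its brightest probe set annotated to it alone.

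The members, classes and gene lists were chosen with earlier results of these data known, so lists are described by counts and medians without a test. Full values were given for defining markers and for members with an unadjusted p under 0.05 or no overlap, and up to 4 genes of each other list were named, by smallest p among those at or above the median brightness. A list may have fewer named, or none. Csf1, Il34, Ccl2, Itgax and Tnf were named beyond this rule, after their values were seen, and Pik3cg was named for its chromosome. The fit was tested on simulated data. Alternatives were the values as deposited, other scalings, an offset of 9.2 signal units, removal of dim probe sets, 1 prior variance, the t-test that the study's methods name without tying it to these arrays (called the methods' t-test), a replicate block, the mean of a gene's probe sets, and leaving out each array. Precision is limited by how many arrays there were, and since each array holds pooled RNA, p-values measure the spread between pools.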

Additional observations from a re-analysis of the deposited data

How the results depend on the processing

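No member passed an adjusted p under 0.05 in any of the 15 alternatives (0 members in each), and the smallest adjusted p was 0.0546 in limma, for Cd5l with the values as deposited. Members with lower values in A/J-12SM numbered 29 to 33 when single arrays were left out. Of the 38 members, 23 kept their sign in all alternatives, and 24 in all but the values as deposited. With the values as deposited, 17 members did not overlap between strains (21.2% of all genes were then wholly lower), the medians were -0.48 for resident, -0.41 for general, -0.51 for recruited and -0.38 for leukocyte members, and 47 probe sets passed. Members without overlap numbered 2 with arrays centred on the median (9.38% of all genes). The recruited median was -0.077 without dim probe sets. Of all probe sets 25 passed, against 1 with 1 prior variance and 1 by the methods' t-test (2630 unadjusted). The cause of these shifts was not tested.

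Leaving out single arrays gave 6 to 23 probe sets that passed, 4 to 19 members without overlap, and a recruited median from -0.35 to 0.0057. Members without overlap numbered 19 when A/J replicate 1 was left out (21.1% of all genes), 12 for A/J-12SM replicate 1 (23% of all genes) and 9 for A/J-12SM replicate 2 (23.9% of all genes), the last a share close to that of all genes. They numbered 6 for A/J replicate 2 (19.9% of all genes), 6 for A/J replicate 3 (24.2%) and 4 for A/J-12SM replicate 3 (22.5%). For these arrays the share of members was below that of all genes. The number that passed was 6 when A/J replicate 2 was left out, 11 for A/J replicate 3, 14 for A/J replicate 1 and for A/J-12SM replicate 2, and 16 for A/J-12SM replicate 1. Resident markers minus recruited and leukocyte markers ran from -0.22 to 0.09.

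Sign changes were mostly of members near 0, but also of Itgam, Ccl6 and Trem2. With the values as deposited, where the median of all genes was itself -0.22, they were Cd163 at -0.16, Msr1 at -0.21, Mrc1 at -0.11, Ptprc at -0.23 and Itgal at -0.23. With arrays scaled to 1 trimmed mean, Ptprc was at -0.018 and Itgal at -0.024. With the mean of a gene's probe sets, Spic was at 0.18, Msr1 at -0.18, Ptprc at -0.17 and Itgal at -0.10. Leaving out single arrays moved Adgre1 from -0.13 to 0.0050, Ccl6 from -0.46 to 0.0057, Ccr2 from -0.25 to 0.15, Cd163 from -0.059 to 0.26, Cybb from -0.29 to 0.0014, Itgal from -0.18 to 0.15, Itgam from -1.05 to 0.51, Laptm5 from -0.28 to 0.019, Lgals3 from -0.27 to 0.032, Msr1 from -0.14 to 0.19, Ptprc from -0.21 to 0.15, Spic from -0.30 to 0.15, Trem2 from -0.76 to 0.31 and Tyrobp from -0.23 to 0.12.

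With the replicate number as a block, 28 probe sets passed and 0 members did. Deviations of same-numbered arrays correlated at -0.01, 0.01 and 0.03, so the numbers were not taken to pair the arrays. Dim probe sets varied more between arrays of a strain than bright ones, with a median SD of 0.86 against 0.21, which limits what can be seen for Itgam, Trem2 and Gpnmb.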
